A study of Caenorhabditis elegans with 2 samples.

Results

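The loci described here are the genes of microRNAs (miRNAs), each taken with 250 bp on either side, in a chromatin immunoprecipitation sequencing (ChIP-seq) study of RBM-26 in Caenorhabditis elegans. They were defined from the annotation, as every gene of the class miRNA on the 6 nuclear chromosomes in the Ensembl annotation of the WBcel235 genome, which gave 261 of 46890 nuclear genes. The worms were whole young adults of strain OP801, 66 hours old and synchronised by bleaching and starvation of first-stage larvae. They carried the integrated fosmid transgene wgIs801, in which B0336.3 (rbm-26) is fused to TY1, EGFP and 3xFLAG tags, with unc-119(+) as the rescue marker in the unc-119(tm4063) mutant background. The 2 libraries are biological replicates 1 and 2 of this group, immunoprecipitated with an antibody to GFP from chromatin sonicated to 200 to 800 bp. No other group was part of the data, so conditions were not compared. The signal comes from a tagged protein in all tissues of the worm at the same time, and a control experiment was not analysed here.

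An miRNA is transcribed by RNA polymerase II as part of a longer primary transcript, from which the Drosha and Pasha complex cuts a hairpin and Dicer cuts the mature strand. The mature strand is loaded into an Argonaute protein and pairs with target messenger RNAs mainly through its seed, so genes with the same seed form a family. In C. elegans some miRNA genes sit in introns of protein-coding genes, and others stand between genes and carry their own promoters. RBM-26 is an RNA-binding protein whose human relatives, RBM26 and RBM27, are known from nuclear RNA decay.

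The families that the overlap results turn on are shown first by the mature strands of their overlapped members. Every annotated mature strand of a nuclear miRNA gene was read from the WBcel235 genome, and the seed, bases 2 to 8, is in capitals. The first 6 strands are those of the mir-51 family, whose 6 genes were all overlapped by regions of the main list. They are followed by the overlapped members of the mir-35 family, of the mir-44 family, of the pair mir-238 and mir-239, and by mir-229, mir-80 and mir-90. Each of the last 3 was overlapped without another gene of its seed.
mir-51: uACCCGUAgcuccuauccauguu
mir-52: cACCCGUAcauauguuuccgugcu
mir-53: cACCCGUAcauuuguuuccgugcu
mir-54: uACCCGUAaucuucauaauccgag
mir-55: uACCCGUAuaaguuucugcugag
mir-56: uACCCGUAauguuuccgcugag
mir-35: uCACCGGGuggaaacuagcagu
mir-36: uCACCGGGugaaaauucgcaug
mir-45: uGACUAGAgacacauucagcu
mir-61: uGACUAGAaccguuacucauc
mir-238: uUUGUACUccgaugccauucaga
mir-239.2: uUUGUACUacacaaaaguacug
mir-229: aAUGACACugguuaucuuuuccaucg
mir-80: uGAGAUCAuuaguugaaagccga
mir-90: uGAUAUGUuguuugaaugccccu

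The deposited data are lists of peaks with a signal value for each peak, made by the authors on the same genome build, ce11. The main list here is the conservative list of the series, which holds peaks that passed a threshold on the irreproducible discovery rate (IDR) between the replicates. Overlapping peaks of a list were merged to a region, and a locus was called overlapped where at least 1 bp of a region lay in the gene or its flanks. The conservative list had 2416 nuclear regions with a median signal of 144. The thresholded lists of replicate 1 and replicate 2 had 1950 and 1546 regions. The depth of the libraries is unknown, since no file used here gives read counts.

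Regions of the conservative list overlapped 35 of the 261 miRNA loci, or 13.4% (95% Clopper-Pearson interval 9.52 to 18.2%). The intervals cover counting error only, and loci that lie close together share regions, so they are too narrow. Of genome tiles as wide as the median miRNA locus, 595 bp, 2.82% held a conservative region, and the share of miRNA loci was 4.76 times as high. Of all nuclear genes with the same flanks 7.54% were overlapped, and 11.0% without the many piRNA genes. Most of those genes are longer than an miRNA gene, and the value of 11.0% lies within the interval of the miRNA loci. The 35 loci lay under 30 separate regions and belonged to 28 of 209 places, where a place is a cluster of miRNA genes or a lone gene. Of other small RNA genes with the same flanks, 23.9% of 612 tRNA genes, 32.1% of 346 snoRNA genes, 31.0% of 129 snRNA genes and 0.417% of 15363 piRNA genes were overlapped. The miRNA loci thus lay above the tiles and the piRNA genes, and below the other small RNA classes.

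The shorter and longer lists gave the same order of miRNA loci and tiles. The wider thresholded list overlapped 42 loci (16.1%), against 3.08% of tiles. The list of replicate 1 overlapped 31 loci (11.9%), against 2.20% of tiles. The list of replicate 2 overlapped 20 loci (7.66%), against 1.82% of tiles. The ranked lists, which also hold peaks that did not pass the threshold, reached many more loci. The ranked list made between the replicates overlapped 106 loci (40.6%, 34.6 to 46.8%), against 25.4% of tiles. The other ranked list of the series, labelled pooled in the plot, overlapped 111 loci (42.5%), against 26.2% of tiles. That of replicate 1 overlapped 106 loci, against 26.9% of tiles, and that of replicate 2 103 loci (39.5%), against 24.3% of tiles. Against their own tiles, the loci were 4.20 to 5.39 times as often overlapped in the thresholded lists and 1.51 to 1.62 times in the ranked lists.

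**Figure D1:**
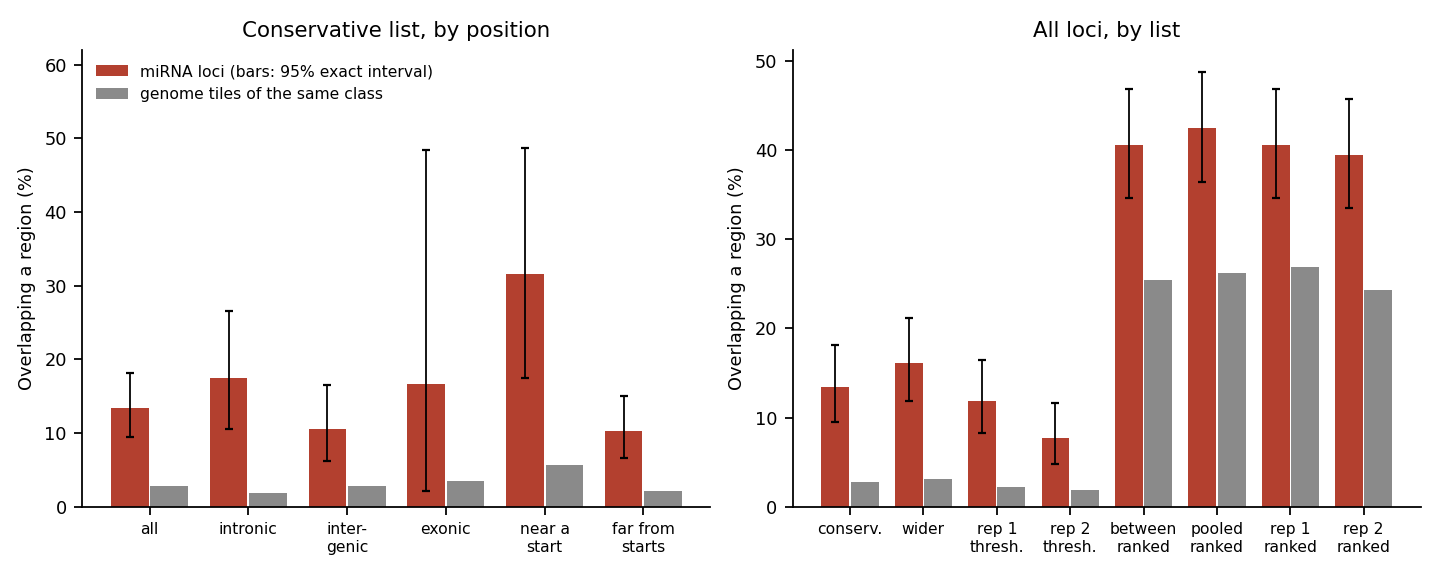
Share of miRNA loci (red, error bars give the 95% exact interval) and of genome tiles of the same class (grey) that overlap a region, in percent. Left, the conservative list by position of the locus, where near and far mean within and beyond 500 bp of a protein-coding start; right, all loci in each of the 8 lists. The red bar is above the grey bar in every pair, and the interval of the 12 exonic loci reaches below its tiles.

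Both intronic and intergenic loci were overlapped above their tiles. Of the 97 loci inside an intron of a protein-coding gene, 17 were overlapped (17.5%, 10.6 to 26.6%), against 1.90% of intronic tiles. Of the 152 intergenic loci, 16 were overlapped (10.5%, 6.14 to 16.5%), against 2.81% of intergenic tiles. The intervals of the intronic and the intergenic loci overlap, and their difference was not tested. Of the 12 loci that touch a coding gene's exon, 2 were overlapped (16.7%, 2.09 to 48.4%), against 3.45% of exonic tiles. The intronic and the intergenic loci each lay under 14 regions, with median signals of 141 and 147. Among intronic loci, 7 of 30 on the strand opposite to the host gene were overlapped (23.3%, 9.93 to 42.3%), and 10 of 67 on the same strand (14.9%, 7.40 to 25.7%). The 7 antisense loci come from 4 host genes, since mir-54, mir-55 and mir-56 share F09A5.3 and mir-35 and mir-36 share Y62F5A.9. The other 2 are mir-1824 in Y87G2A.18 and mir-5595 in nurf-1, a chromatin remodelling factor.

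The overlaps were spread over all 6 chromosomes. On chromosome III, 8 of 27 loci were overlapped (29.6%, 13.8 to 50.2%), against 3.70% of the tiles there. On X, which holds more miRNA genes than any other chromosome, 5 of 74 loci were overlapped (6.76%, 2.23 to 15.1%), against 2.02% of its tiles. The other 4 chromosomes lay between these values, with 10.7 to 16.3% of their loci overlapped.

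The strongest region at any miRNA locus stood at the mir-54, mir-55 and mir-56 cluster on X, antisense in F09A5.3. Its signal was 300.0, and its rank was 181 among the 2416 conservative regions. It ran from 488 bp before the 5′ end of the mir-54 hairpin to 79 bp past it, with the summit 273 bp before it. In replicate 1 the region had a signal of 150.0 and in replicate 2 of 158, both past the threshold of that replicate. A second region on the other side of the cluster, with a signal of 198, began 413 bp from the same 5′ end, just past mir-56, and in replicate 1 had a signal of 135. No thresholded region of replicate 2 was found there. The region of rank 181 also overlaps the locus of F09A5.15, an miRNA gene annotated on the strand opposite to mir-55.

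mir-51 and mir-53 lie 1679 bp from end to end on chromosome IV and had a region each. That of mir-51 had a signal of 256 and a summit inside the hairpin, with 141 in replicate 1 and 123 in replicate 2. Its summit was inside the hairpin in replicate 1 and 11 bp before it in replicate 2. That of mir-53 had a signal of 108, with 52.9 in replicate 1 and 58.2 in replicate 2, neither past its replicate's threshold. mir-52 stands alone on chromosome IV, and its region had a signal of 157, with 92.2 in replicate 1 and 85.5 in replicate 2. The summit was inside the hairpin in the conservative list and in replicate 1, and 636 bp before it in replicate 2. The conservative region was 1262 bp wide, and its nearest protein-coding start was 9722 bp from the summit. The 6 genes of the mir-51 family, which together are needed for embryonic development, were thus overlapped at 3 places by 5 regions. The hairpins of mir-51 and mir-52 are shown with both mature strands in capitals, since they are the genes of the family that hold a summit of the conservative list. That summit is base 42 of the mir-51 hairpin and base 51 of the mir-52 hairpin, counted from the 5′ end.
mir-51: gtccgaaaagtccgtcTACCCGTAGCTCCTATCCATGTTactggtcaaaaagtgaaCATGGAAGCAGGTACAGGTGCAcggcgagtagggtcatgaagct
mir-52: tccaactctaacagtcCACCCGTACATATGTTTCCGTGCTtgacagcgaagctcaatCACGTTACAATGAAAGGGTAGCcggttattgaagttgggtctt

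At the mir-35 cluster on chromosome II, 7 hairpins lie within 797 bp and 1 conservative region with a signal of 171 stood at the 5′ end. Its summit was 191 bp before mir-35, and in the replicates it had signals of 90.0 and 79.7, both past the threshold. The region ended 49 bp before mir-35, so it reached the flanks of mir-35 and mir-36 only. mir-37 was overlapped in both replicates' thresholded lists and lay 274 bp from the conservative region. All 7 loci of the cluster were overlapped in the wider list, where the peak that reached the loci of mir-37 to mir-41 had a signal of 102. The region of the wider list ended before the hairpins of mir-40 and mir-41 and reached only their flanks. The eighth family member, mir-42, belongs to another cluster with mir-43 and mir-44, and had a peak of signal 36.8 in the ranked list of replicate 1 only. The mir-35 family is abundant in oocytes and embryos and is needed for embryonic viability.

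mir-229 leads a cluster with mir-64, mir-65 and mir-66 in an intron of gcn-1, a translational control gene, and had the second strongest region. Its signal was 260 in the conservative list, with 149 in replicate 1 and 111 in replicate 2, both past the threshold. The region ended 30 bp before the hairpin, the summit lay 250 bp before it, and the start of gcn-1 was 20257 bp from the summit. mir-64, mir-65 and mir-66 were overlapped in none of the thresholded lists, although they have the same seed. The regions at mir-54, mir-229 and mir-35 have in common a summit between 191 and 273 bp before the first hairpin of their cluster. This spacing was not shared by the other regions at clusters, among them the second region at mir-54. Their summits lay from 168 bp before to 8501 bp past the 5′ end of the first hairpin. The 121 bases at the summits before mir-54, mir-229 and mir-35 are shown on the strand of the miRNA gene, in ce11. Any GAGAGA or AATAAA, read on either strand, is in capitals.
mir-54, chrX:13145307-13145427, minus strand: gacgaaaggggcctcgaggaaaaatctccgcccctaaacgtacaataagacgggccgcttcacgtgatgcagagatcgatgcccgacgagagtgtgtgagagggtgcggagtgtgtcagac
mir-229, chrIII:2172142-2172262, plus strand: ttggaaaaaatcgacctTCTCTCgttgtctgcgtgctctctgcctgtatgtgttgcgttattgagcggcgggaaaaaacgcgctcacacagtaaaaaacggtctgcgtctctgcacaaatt
mir-35, chrII:11537357-11537477, plus strand: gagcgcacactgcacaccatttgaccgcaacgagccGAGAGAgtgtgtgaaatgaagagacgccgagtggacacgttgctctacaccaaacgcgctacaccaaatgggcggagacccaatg

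**Figure D2:**
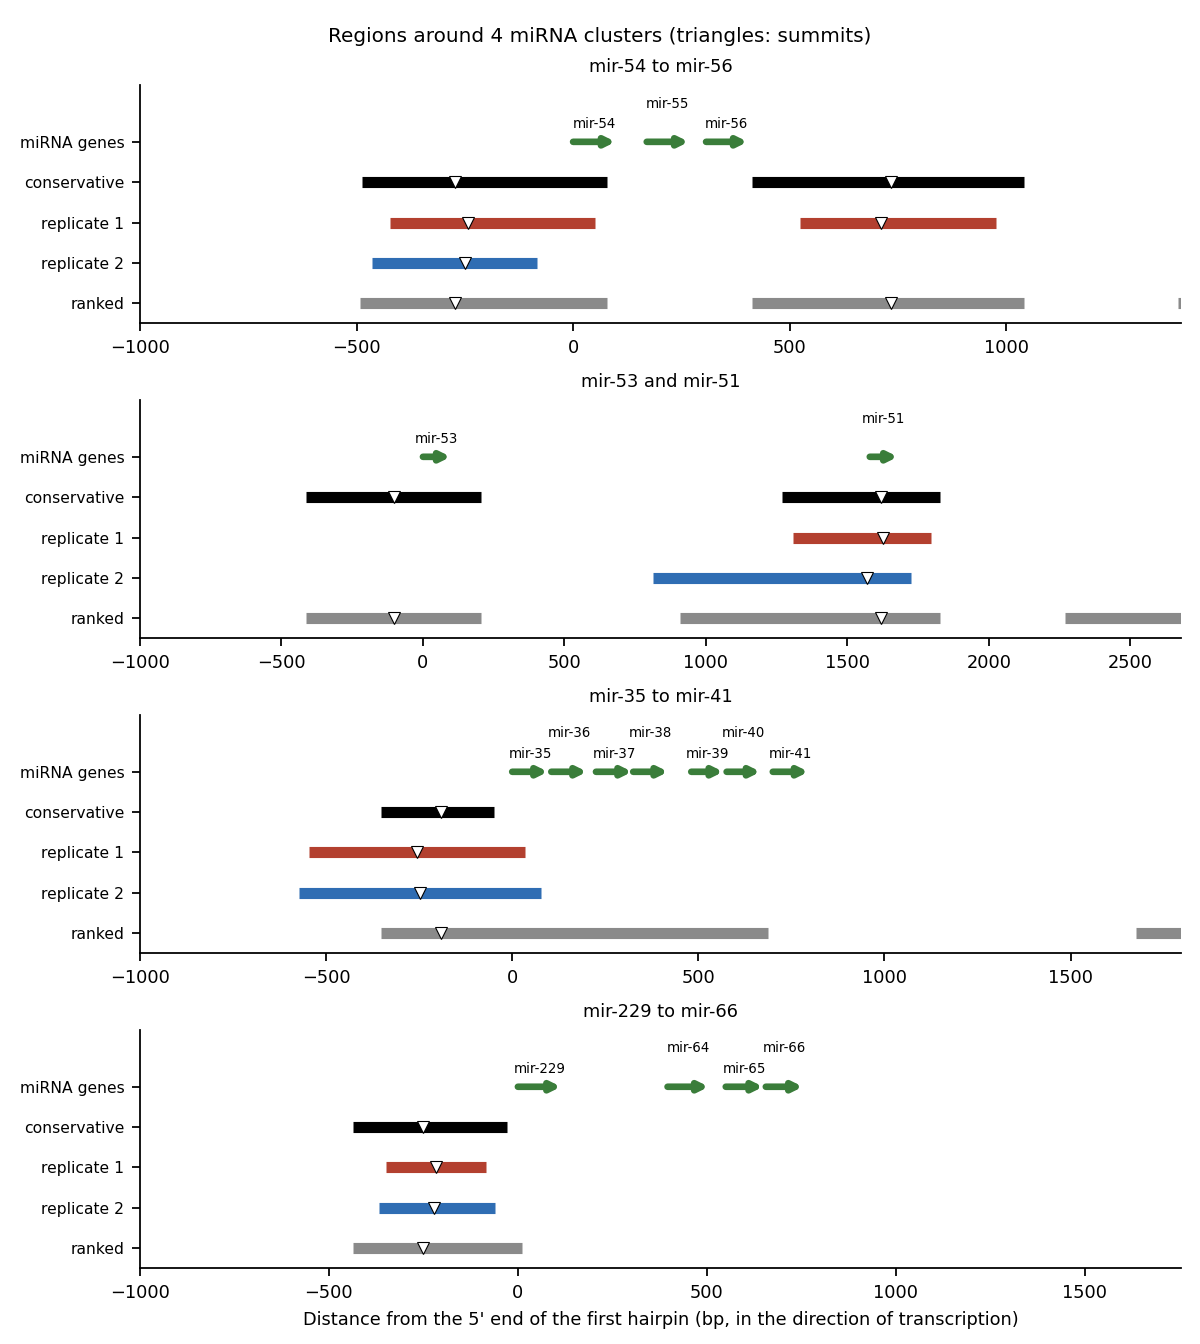
Regions around 4 miRNA clusters; the x axis is the distance in bp from the 5′ end of the first hairpin, in the direction of transcription, green arrows are miRNA genes and white triangles are summits. Tracks show regions of the conservative list, the thresholded lists of replicate 1 and replicate 2, and the ranked list made between the replicates. At mir-54, mir-35 and mir-229 each of the 3 thresholded tracks has a region with its summit before the first hairpin, and at mir-54 the conservative list and replicate 1 have a second region past mir-56. At mir-51 the summit of the conservative region is inside the hairpin.

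The letters GAGAGA and AATAAA were counted on both strands in the 301 bp at each conservative summit. GAGAGA was in 14 of the 30 windows at miRNA loci (46.7%), against 36.7% of the 2386 other windows. AATAAA was in 12 of the 30 (40.0%), against 45.6% of the others. The GC content of the 101 bp at the summit had a median of 47.5% at miRNA loci, against 46.5% at the other regions. None of these measures was tested.

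Among the 29 clusters, in which neighbours on the same strand lie less than 10000 bp apart, 7 had at least 1 overlapped gene. All genes were overlapped in 4 of these, namely mir-54 to mir-56, mir-51 with mir-53, mir-61 with mir-250, and mir-80 with mir-238 and mir-90. mir-61 and mir-250 shared a region of signal 125, with 68.3 in replicate 1 and 65.6 in replicate 2, whose summit was inside mir-61 in the conservative list and in replicate 2 and 130 bp before it in replicate 1. mir-80, of the bantam family, had a region of signal 220 with 149 in replicate 1 and 71.8 in replicate 2, of which that of replicate 1 was past its threshold. In the same cluster mir-90 had a signal of 116 and mir-238 of 69.5, which was the lowest at any overlapped locus. mir-238 was not overlapped in the wider list. In the cluster of mir-2 and mir-71, inside ppfr-1, mir-2 alone was overlapped in the conservative list, with a signal of 107. mir-71, which is known for its part in lifespan, had a thresholded peak of 105 in replicate 1 and a ranked peak of 31.6 in replicate 2. The cluster with the most genes, 11 from mir-4807 to mir-4921 on X, was overlapped in none of the 8 lists. Of all 81 clustered genes 14 were overlapped (17.3%, 9.78 to 27.3%), and of the 180 lone genes 21 (11.7%, 7.37 to 17.3%), with intervals that overlap.

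Of 17 family lists, 8 had at least 1 overlapped gene. Among the 17 is a list of 7 conserved genes that are not a family, such as mir-1 and mir-34, and none of these was overlapped. All 6 genes of the mir-51 family were overlapped. The mir-35 family had 2 of 8, the bantam family, whose mir-58.1 is among the most abundant worm miRNAs, 2 of 8, and the mir-44 family 2 of 4. The mir-2 family also had 2 of 4, the pair mir-238 and mir-239 2 of 3, the mir-64 family 1 of 5 and the mir-50 family 1 of 3. These lists go by gene name, and the bantam list holds genes without the seed of mir-80, among them mir-58.1. mir-58.1, in an intron of phkb-1, had a signal of 121, with 82.5 in replicate 1 and 38.0 in replicate 2, and its summit was 412 bp before the hairpin. mir-45, of the mir-44 family, had a signal of 254, with 104 in replicate 1 and 153 in replicate 2, and a summit 335 bp past the 3′ end of the hairpin. The same summit lay 21 bp past the end of the protein-coding gene top-2. mir-239.2 had a signal of 116, with 52.1 in replicate 1, not past the threshold, and 65.1 in replicate 2, and its summit 552 bp past the gene. Its conservative region came no nearer than 243 bp to the gene, so only the end of the flank was overlapped. A thresholded peak of replicate 1 at this locus, of signal 67.0, lay on the other side of the gene and did not overlap the conservative region. Together 18 of the 69 genes in these lists were overlapped (26.1%, 16.3 to 38.1%), and 17 of the 192 others (8.85%, 5.24 to 13.8%). The 18 listed genes, of which 6 are the mir-51 family, lay under 15 regions, and the 17 others under 17. The lists were drawn up with earlier results of these data known, so these shares are a description.

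The heterochronic miRNAs let-7 and lin-4, which time larval development, and lsy-6, which sets the left and right identity of a pair of taste neurons, were not overlapped in the conservative list. let-7 is annotated as its primary transcript of 1732 bp, and neither that span nor its flanks held a region in any of the 8 lists. The nearest conservative region was 8120 bp away. lsy-6 also had no region in any list, with the nearest conservative region 33827 bp away. lin-4, in an intron of F59G1.4, had a thresholded peak of signal 58.0 in replicate 1 and none in either list of replicate 2. Its peak in the ranked list made between the replicates had a signal of 102 and a −log10 global IDR of 1.83, under the value of 2 that the thresholded rows reach. This was the highest ranked peak at any miRNA locus outside the conservative list. Of the 7 genes with let-7 family names, mir-48 and mir-241 had ranked peaks, of signal 65.9 and 79.4, and 4 had no region in any list.

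Summits lay more often on the 5′ than on the 3′ side of the nearest miRNA gene. Within 250 bp, 11 conservative summits lay on the 5′ side, 4 inside the gene and 3 on the 3′ side. The counts in the same order were 9, 3 and 2 in the list of replicate 1, and 8, 1 and 2 in that of replicate 2. Within 2000 bp there were 29 on the 5′ side, 4 inside and 14 on the 3′ side in the conservative list. For intronic genes, 11 lay within 500 bp on the 5′ side, none inside and 3 on the 3′ side. For intergenic genes these counts were 5, 4 and 4. The 4 genes with a conservative summit inside were mir-51, mir-52, mir-61 and mir-4936. The region itself reached into the gene at 21 of the 35 overlapped loci and only into the flank at the other 14, and 19 of the 35 held a summit in the gene or its flanks.

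**Figure D3:**
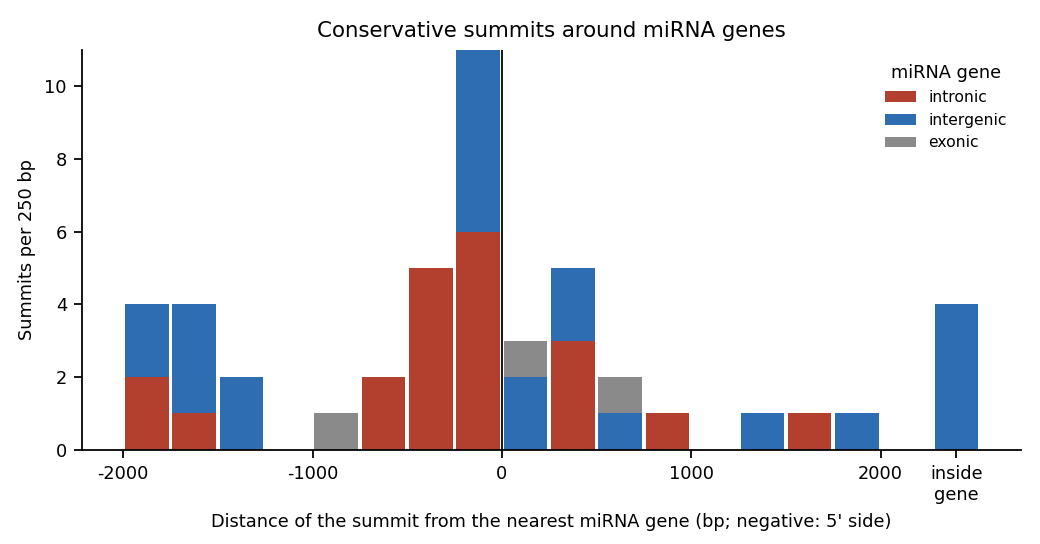
Number of conservative summits per 250 bp by distance from the nearest miRNA gene, up to 2000 bp on each side, coloured by the position of that gene; negative distances are on the 5′ side, and summits inside a gene are in the bar at the right. The tallest bar, with 11 summits, covers the 250 bp just before the gene.

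Some of the 30 regions at miRNA loci also lay at the start of a protein-coding gene. In 12 of them (40.0%) the summit was within 500 bp of a protein-coding start, against 42.5% of the 2386 other conservative regions. In 17 (56.7%) it was over 1000 bp from any such start, against 43.7% of the others. Of the 12 regions near a start, 1 held a gene of the family lists, and that was the region of mir-61 and mir-250. Of the other 18 regions, 14 held such a gene. The share of listed genes among all loci near a start and far from one was not counted. The lists were drawn up with earlier results of these data known, so this split is a description. Median signals were 136 in the 12 regions and 160 in the 18.

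Among the regions near a start, the region of mir-4932 had a signal of 215 and its summit 33 bp upstream of klp-16, a kinesin gene, while the miRNA gene lay 71 bp from the start of smn-1, which acts in the assembly of small nuclear ribonucleoproteins. mir-354 overlaps an exon of the ribosomal protein gene rps-20, and its region had a signal of 203 and a summit 13 bp upstream of Y105E8A.14. mir-5549 had a signal of 194 and a summit 154 bp upstream of rfc-4, a subunit of the clamp loader of DNA replication. At mir-77 the region, of signal 198, peaked 210 bp upstream of srh-70, and the snoRNA gene T21B4.20 was within 250 bp. mir-77 was the only overlapped locus with a tRNA, snoRNA, snRNA or rRNA gene within 250 bp. mir-4934 had a signal of 112 near mtr-4, the helicase of the nuclear exosome. mir-353, in an intron of the ribosomal protein gene rpl-24, had one of 114. Its summit lay 36 bp downstream of the start of D1007.10 and 133 bp past the end of rpl-24. Which gene such a region belongs to cannot be told apart from its position. The same holds where a summit lay near the end of a protein-coding gene. Among such summits were those at mir-45, 21 bp past top-2, and at mir-4936, 87 bp past Y53G8AL.4. Others were at mir-51, 201 bp past alh-3, and at mir-61, 242 bp past sel-11.

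Loci close to a protein-coding start and loci farther from one were both overlapped above their tiles. Of 38 miRNA genes within 500 bp of a protein-coding start, 12 were overlapped (31.6%, 17.5 to 48.7%), against 5.61% of tiles within 500 bp of a start. Of the 223 genes farther away, 23 were overlapped (10.3%, 6.65 to 15.1%), against 2.10% of tiles farther away. The distance was taken from the 5′ end of an miRNA gene, but from the nearer edge of the central 95 bp of a tile. The 2 measures are thus not quite alike.

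The signal of the regions at miRNA loci was like that of the rest of the list. The 30 regions had signals from 69.5 to 300.0 with a median of 142, and the 2386 other conservative regions from 12.7 to 619 with a median of 144. Of the 30 regions, 15 had a signal above the median of the list. In the ranked list made between the replicates, 71 of the 96 regions at miRNA loci were above its median, and their median signal was 66.5, against 40.7 over all 17826 regions. A merged region carries the signal of its strongest peak, which can lie outside the locus. The 96 include the regions that hold the conservative peaks, and the difference was not tested.

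The replicates found the loci unequally. Of the 35 overlapped loci, 15 had a thresholded peak in both replicates, 12 in replicate 1 only, 1 in replicate 2 only and 7 in neither. The locus in replicate 2 only was mir-4920, and the 7 in neither were mir-2, mir-53, mir-90, mir-253, mir-1824, mir-4934 and mir-5595. Counted by replicate peaks that overlap the conservative region itself, in or out of the locus, the 4 numbers were 17, 9, 2 and 7. In the ranked lists all 35 loci had a peak in replicate 1, and the strongest peaks in the locus had signals from 47.7 to 150.0 and a median of 76.7. In replicate 2, 32 had a peak, with signals from 38.0 to 158 and a median of 67.5. The 3 without one were mir-55, mir-56 and F09A5.15, beside the mir-54 region. Replicate 1 had the higher signal at 21 of these 32 loci, but the lists of the replicates are not on a common scale. Over 65 distinct pairs of ranked regions at miRNA loci the signals of the replicates had a Spearman rho of 0.770, a description across loci that share the same 2 libraries.

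**Figure D4:**
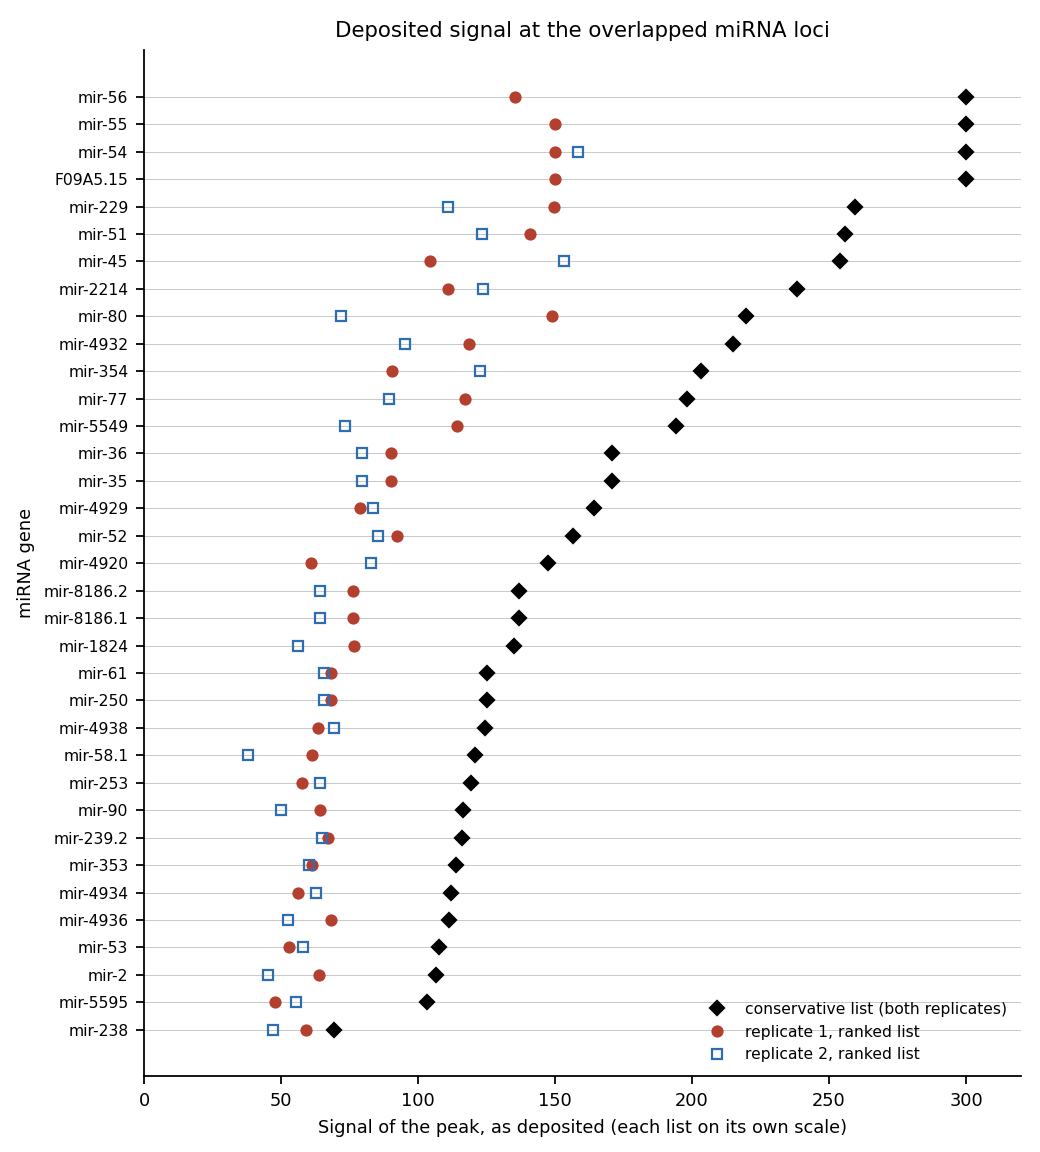
Deposited peak signal at the 35 overlapped miRNA loci, in the conservative list (diamonds) and in the ranked lists of replicate 1 (circles) and replicate 2 (squares), taken as the strongest peak in each locus and ordered by the conservative signal; each list has its own scale. The conservative values run from 69.5 at mir-238 to 300.0 at the mir-54 cluster, and loci under a shared region have the same value.

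Outside the conservative list, 12 more loci were overlapped in another thresholded list. mir-37 was in the lists of both replicates, and it was in the wider list together with mir-38 to mir-41. mir-38 was also in the list of replicate 2. lin-4 was in that of replicate 1. mir-243, which is known to be loaded into the Argonaute RDE-1, had a peak of 53.2 in the list of replicate 1 and of 26.8 in the ranked list of replicate 2, and lay 534 bp from a conservative region. The other 5 were named after their values were seen. mir-71, described above, was in the list of replicate 1. mir-72 had a signal of 95.4 in the wider list, mir-2216 of 93.7 and mir-4916 of 90.9. The list of replicate 2 also held mir-72, with a signal of 40.6. mir-1830 had a signal of 81.2 in replicate 2 alone. No thresholded list overlapped the other 214 loci, and the ranked list made between the replicates overlapped 60 of these. Over the 71 loci that this ranked list reached and the conservative list did not, the strongest peak had a median signal of 47.3, with a range from 2.42 to 102. No list at all overlapped 123 of the 261 loci.

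Protein genes of the miRNA pathway were read at their starts, in windows as wide as the median miRNA locus. A conservative region overlapped 5 of 31 such starts (16.1%), against 6.53% of all protein-coding starts. This list too was drawn up with earlier results of these data known, so the share is a description, and the difference was not tested. At xrn-2, the nuclear exoribonuclease that also degrades released miRNAs, the signal was 325 with the summit 35 bp downstream of the start. At vig-1, a component of the silencing complex, it was 394 with the summit 430 bp upstream. At drsh-1, which encodes Drosha, it was 119.9 with the summit 92 bp downstream. At cgh-1, a helicase of messenger RNA repression, it was 129, and at lin-28, which blocks let-7 processing, 109.9. The starts of the other 26, among them dcr-1 for Dicer, pash-1 for Pasha and the Argonaute genes alg-1, alg-2 and alg-5, were not overlapped. Some of these genes, among them alg-1, had a conservative region outside the start window, while dcr-1, pash-1, alg-2 and alg-5 had none over the gene.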

How the data were processed

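The authors deposited ChIP-seq peak lists, which the labels place on assembly ce11. Which aligner and peak caller made them was not given in the sources used here. The signal per peak is the authors' deposited value and was used only within a list. The authors deposited −log10 global IDR values in the ranked lists, and all conservative rows reach 2. Deposited −log10 q-values and the capped score were not used. Overlapping rows of a list were merged, keeping the summit and signal of the strongest row. Replicate values beside a conservative region are those of the strongest deposited row that overlaps it, and otherwise of the strongest row in the locus. Genes came from Ensembl release 115 (WBcel235), with symbols from RefSeq for 261 loci, and sequences from the RefSeq copy of the same assembly. Background tiles were 168522 adjoining stretches of 595 bp. Starts are annotated starts, which lie at the trans-splice site for trans-spliced genes. Code for merging and overlaps was tested on simulated data (Python 3.11.15, pandas 2.3.3, scipy 1.17.1). Named loci were all in the conservative list, those in both replicates' lists, the 5 others of highest ranked signal, and let-7, lin-4, lsy-6 and the mir-35 family. That ranked signal was of the merged region, whose strongest row can lie outside the locus, as at mir-243 and mir-37 to mir-41. The members and lists were chosen with earlier results of these data known. ntl-1 of the 32 pathway genes and mir-1834 of the bantam list were not matched by symbol.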

Additional observations from a re-analysis of the deposited data

How the results depend on the processing

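The count of 35 overlapped loci stayed within 1.5 times with flanks of 500 bp (38) or 1000 bp (47), with at least 100 bp of overlap (30), with the wider list (42), and without regions near tRNA, snoRNA or snRNA genes (34). It was 21 without flanks, 19 with the summit required inside the locus, 10 with the 500 regions of highest signal, 19 at a global IDR of 0.001 or less, and 18 without rows of the commonest width. The first 2 of these settings narrow the locus or the overlap rule, and the other 3 keep fewer regions. With a replicate left out it was 20 to 31, the lower value being the list of replicate 2 alone. The 17 intronic loci became 10 on the host's strand only, 6 with the summit inside, and 9 to 15 with a replicate left out. The 16 intergenic loci became 10 to 14 with a replicate left out. The 7 clusters with an overlapped gene became 4 with gaps under 1000 bp and 11 with gaps under 10000 bp on either strand, and stayed between 5 and 7 with a replicate left out. The median signal of 142 was 87.5 to 92.2 in the lists of single replicates, which have their own scale. The 60 loci found only in the ranked list became 30 with the summit inside, and with the ranked list of either replicate alone the count was again 60. The share of all genes, 7.54%, was 4.86% with a window at each gene's start. Read depth is unknown, so a locus without a region is not shown to lack binding.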
